A study of Mus musculus with 16 samples.

Results

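The mature myelin genes were taken as the rows of the deposited table of all libraries whose symbol is Mbp, Mog, Mag, Mobp, Cnp, Cldn11, Opalin, Ermn or Mal. All 9 were found among the 26466 genes of the table, and all 9 passed the filter on low values, which asked for 10 normalized counts in 3 libraries and kept 26463 genes. They were followed in bulk RNA sequencing of 16 mouse glioblastomas, which the labels describe as transplanted tumours. The tumours formed 4 groups: Type 2 TAM depleted (4 tumours), Type 2 Control (4), Type 1 TAM depleted (3) and Type 1 Control (5). TAMs are tumour-associated macrophages, the macrophages and microglia within a tumour. In earlier work on these lineage-based models, Type 1 names tumours started in neural stem and progenitor cells and Type 2 names tumours started in oligodendrocyte precursor cells. The labels do not state this origin, nor the driver alleles, strain, age, sex, graft site or host, nor how TAMs were depleted or what the Control tumours received. The labels do not say which animal a tumour came from, and p-values reflect the spread between these samples only. In bulk RNA a change in the number of cells of a type cannot be told apart from a change in RNA per cell.

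Oligodendrocytes wrap axons in myelin, a stack of membranes held together by proteins that few other cell types make in quantity. Cnp comes on early as a precursor differentiates, while Mog, Mobp, Opalin and Ermn are known as genes of cells that are myelinating or mature. Sox10 and Myrf are the transcription factors best known for switching myelin genes on, and Myrf is made when the precursor differentiates.

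Stretches just upstream of 3 of the genes are printed because those genes behaved differently in the Type 2 tumours: Cnp and Cldn11 were the members past the test between the controls, and Mobp had the largest fitted change on TAM depletion. Each runs from 250 to 41 bases before the RefSeq start of the gene (GRCm38.p6, 210 bases, 5′ to 3′ on the gene's strand, which is the plus strand for all 3). Capitals mark matches on either strand to the SOX letters ACAAAG or ACAATG and to the MYRF letters CTGGCAC or CTGGTAC, which do not overlap each other here.
Cnp, chr11:100574689-100574898: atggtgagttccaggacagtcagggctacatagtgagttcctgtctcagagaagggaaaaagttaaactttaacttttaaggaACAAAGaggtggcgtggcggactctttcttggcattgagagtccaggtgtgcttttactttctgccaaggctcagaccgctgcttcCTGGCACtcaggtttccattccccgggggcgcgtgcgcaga
Cldn11, chr3:31149670-31149879: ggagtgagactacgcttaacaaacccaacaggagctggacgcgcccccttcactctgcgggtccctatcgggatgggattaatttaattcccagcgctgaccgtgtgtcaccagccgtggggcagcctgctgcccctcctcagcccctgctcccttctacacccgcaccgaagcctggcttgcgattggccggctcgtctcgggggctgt
Mobp, chr9:120149492-120149701: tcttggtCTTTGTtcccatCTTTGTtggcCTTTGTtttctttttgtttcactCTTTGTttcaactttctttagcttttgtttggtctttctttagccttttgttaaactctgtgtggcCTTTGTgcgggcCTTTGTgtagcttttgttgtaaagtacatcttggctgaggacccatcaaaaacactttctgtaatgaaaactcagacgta
The Cnp stretch holds 1 SOX match and 1 MYRF match, the Cldn11 stretch neither, and the Mobp stretch 6 SOX matches, all ACAAAG on the opposite strand. Of the 32851 stretches of the same length in the RefSeq table, 22.2% hold a SOX match, 5.02% a MYRF match, and 1 (that of Mobp) holds 6 or more SOX matches. RefSeq stretches were matched for 8 of the 9 genes (10 stretches, 3 of them for Mag). By gene, 5 of the 8 have a SOX match (Mag, Mobp, Cnp, Opalin and Ermn) and 3 a MYRF match (Mog, Mag and Cnp). Mag has 3 chances to match where the other genes have 1. These matches are letters only, and no binding was measured.

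In GENCODE vM21 annotation of GRCm38, Mobp lies at chr9:120149707-120181484 and Cnp at chr11:100574904-100591729, both on the plus strand. Cldn11 lies at chr3:31149920-31164324 on the plus strand, and Mag at chr7:30899176-30914873 on the minus strand. Reads fall in exons of spliced genes, and the library kit does not mark strand, so exonic bases shared with a neighbour can take that neighbour's reads. Cnp shares 4.2% of its exonic bases with Dnajc7 on the opposite strand, and Ermn shares 6.5% with Galnt5. Mobp shares 1.2% with the gene model Gm38642, and the other 6 genes share none.

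Depth was 6.72 to 18.3 M (mega) recovered reads in Type 2 TAM depleted libraries and 4.21 to 14.7 M in Type 2 Control libraries. It was 14.3 to 15.95 M in Type 1 TAM depleted libraries and 5.83 to 7.63 M in Type 1 Control libraries. Reads in 997 odour and pheromone receptor genes, whose products work mainly in the nose, served as a measure of background. They were over 2000 per M reads in 9 libraries (high background) and under it in 7 (low background). All Type 1 TAM depleted libraries were low and all Type 1 Control libraries high, so that in Type 1 depletion and background cannot be told apart. In Type 2 each set held 2 TAM depleted libraries and 2 Control libraries. All 18 TAM marker genes had a lower fitted value in Type 2 TAM depleted than in Type 2 Control tumours. Past the test were 4 of them, where 1.24% of all genes were called lower. In Type 1 it was 16 of 18, with 0 past limma's test. At an unadjusted p under 0.05 in limma 2 of the 18 were lower in Type 1, beside 24.5% of all genes. The summed TAM marker count was 2483, 3038, 2617 and 5587 in the Type 2 TAM depleted libraries, against 5630, 15331, 5588 and 11457 in the Type 2 Control libraries. Type 2 TAM depleted 4 thus reached the level of Type 2 Control 3. In Type 1 it was 2748, 4862 and 2180 in the TAM depleted libraries, against 3851, 2571, 3692, 3481 and 4962 in the Control libraries. Type 1 TAM depleted 2 lay above 4 of the 5 Control libraries, and Type 1 TAM depleted 1 lay above Type 1 Control 2. Only Type 1 TAM depleted 3 lay below every Type 1 Control library. By this measure Type 2 TAM depleted 4 and Type 1 TAM depleted 1 and 2 did not stand apart from the Control tumours. The members' depletion medians are also given without each of them.

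All 9 genes had reads in every library, but their levels differed widely. Per kilobase of exon, Mbp (myelin basic protein, which compacts the membranes) was highest in 8 libraries, Cnp (a phosphodiesterase of non-compact myelin) in 5 and Cldn11 (the claudin that seals myelin layers) in 3. Opalin (a membrane glycoprotein of mature oligodendrocytes) was lowest in 13 of 16 libraries. In Type 2 TAM depleted tumours the median normalized count per kilobase was 769 for Mbp, 506 for Cldn11, 470 for Cnp and 314 for Mobp. Mal, a raft proteolipid, followed at 154, Mog, an outer surface glycoprotein, at 111, Mag, an adhesion receptor facing the axon, at 105, Ermn, a cytoskeletal protein, at 55.3 and Opalin at 33.5. In Type 2 Control tumours the order of these medians was Cldn11 (474), Cnp (360), Mbp (327), Mal (67.02), Mog (52.4), Mobp (25.0), Ermn (20.9), Mag (18.5) and Opalin (13.9). In Type 1 TAM depleted tumours it was Mbp (125), Cnp (90.1), Cldn11 (66.97), Mobp (62.5), Mog (46.5), Mal (36.995), Mag (26.1), Ermn (16.8) and Opalin (5.72). In Type 1 Control tumours it was Cnp (107), Mbp (101), Cldn11 (63.5), Mobp (52.5), Mog (46.9), Mal (37.4), Ermn (27.6), Mag (24.4) and Opalin (12.8). Within each of these 4 orders the library values of every gene overlapped those of the gene next to it. Mobp moved most in rank, between second and ninth place among the 9 genes over the 16 libraries, while Mbp stayed within the top 3.

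**Figure D1:**
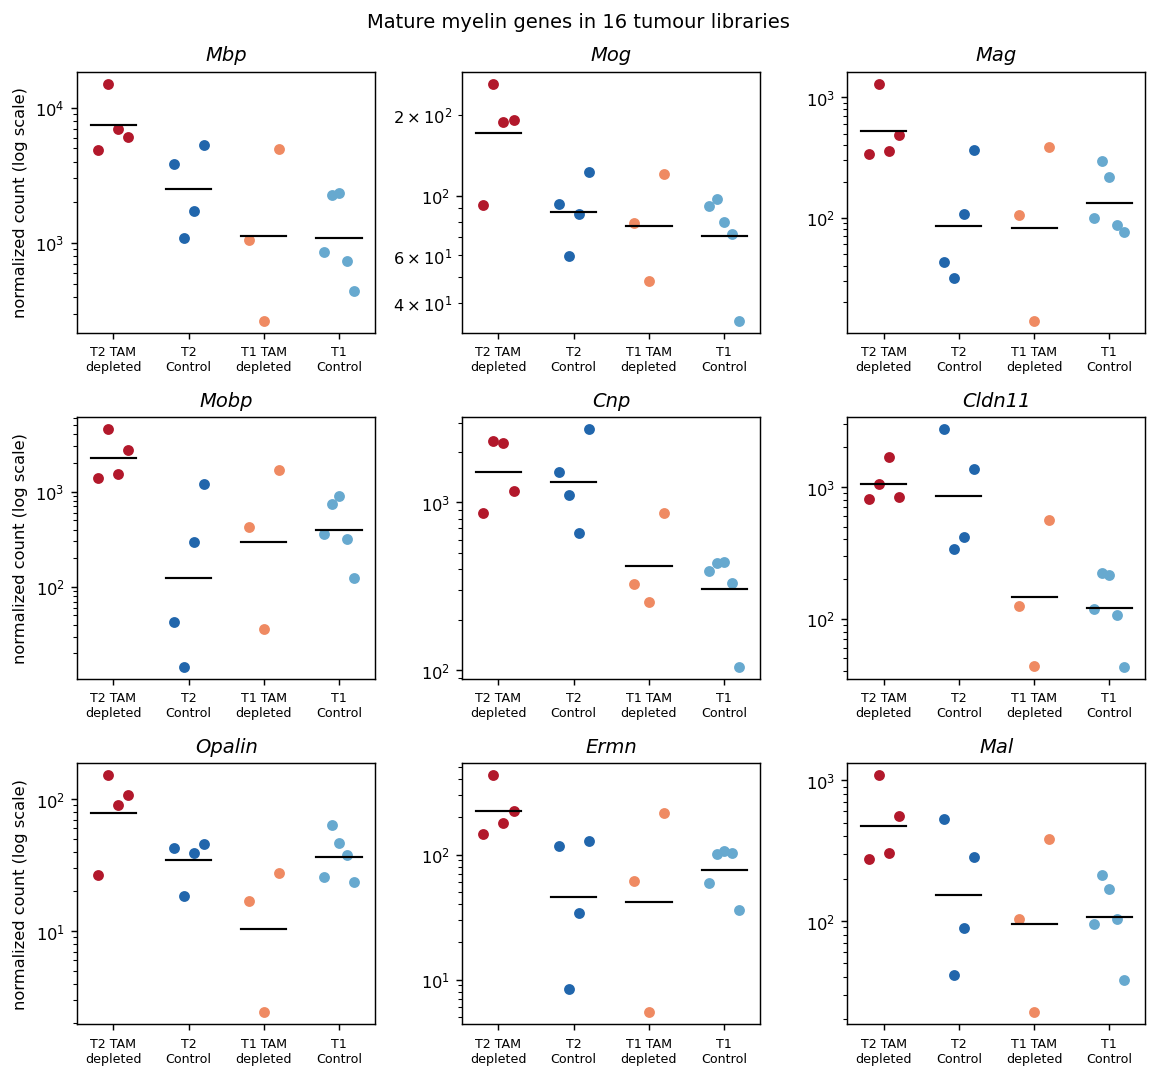
Normalized count (log scale) of each of the 9 genes in 16 tumours, by group; T2 and T1 are Type 2 and Type 1, each point is 1 tumour and each bar is the group mean on the log scale. Cnp and Cldn11 are higher in every Type 2 Control than in any Type 1 Control tumour, and Mobp is spread from 14.5 to 1210 within the Type 2 Control group.

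Cnp and Cldn11 were higher in Type 2 Control than in Type 1 Control tumours, while Mobp, Mag, Ermn and Opalin had fitted values below 0 that did not pass the test. Cnp had normalized counts of 1516, 1107, 661 and 2732 in the Type 2 Control tumours, against 388, 438, 444, 330 and 105 in the Type 1 Control tumours. The groups did not overlap, and Cnp was 4.32-fold higher (log2 fold change 2.11, SE 0.51, adjusted p = 0.0291, limma with Benjamini-Hochberg adjustment over all genes). For Cldn11 the Type 2 Control tumours had 2735, 340, 415 and 1356, against 119, 224, 215, 107 and 43.3 in the Type 1 Control tumours. Again every Type 2 Control value lay above every Type 1 Control value, 6.94-fold on the fitted scale (log2 fold change 2.80, SE 0.70, limma adjusted p = 0.0366). These 2 were the members called, both higher, where 2.28% of all genes tested were called higher and 3.09% either way. Among all genes, 5.03% were higher in Type 2 Control with no overlap between the groups.

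The other 7 genes overlapped between the control groups. Mbp averaged 2990 ± 1950 in Type 2 Control and 1331 ± 909 in Type 1 Control tumours (SD, n = 4 and 5; log2 fold change 1.1995, SE 0.73, limma adjusted p = 0.513). Mal and Mog had log2 fold changes of 0.53 and 0.30, and Opalin, Mag, Ermn and Mobp of -0.09, -0.63, -0.68 and -1.66. None of these 7 passed the test. The unadjusted 95% interval for Mobp ran from -4.05 to 0.73. The median over the 9 genes was 0.30, against -0.23 over all genes tested. The calls for Cnp and Cldn11 did not hold throughout. With background subtracted neither passed, at log2 fold changes of 2.27 for Cnp (limma adjusted p = 0.0597) and 3.03 for Cldn11 (limma adjusted p = 0.0613). Without Type 2 Control 1, without Type 2 Control 4, without Type 1 Control 4 or without Type 1 Control 5 neither passed, and without Type 1 Control 1 Cnp alone did. Among high-background libraries alone (2 Type 2 Control and 5 Type 1 Control), the log2 fold change was 3.12 for Cldn11 (limma adjusted p = 0.0236) and 1.71 for Cnp (limma adjusted p = 0.0913). Markers of other cell types also differed between the controls. All 15 neuron markers were lower in Type 2 on the fitted scale, 4 of them past the test (median -2.34), beside 0.816% of all genes. All 18 TAM markers were above 0 there, 0 past limma's test (median 1.23). At an unadjusted p under 0.05 in limma were 13 of them, beside 8.47% of all genes in the higher direction. All 10 Schwann cell markers were above 0 too, 3 past the test (median 1.16), beside 2.28% of all genes. The part of these cells in the Cnp and Cldn11 values was not tested.

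**Figure D2:**
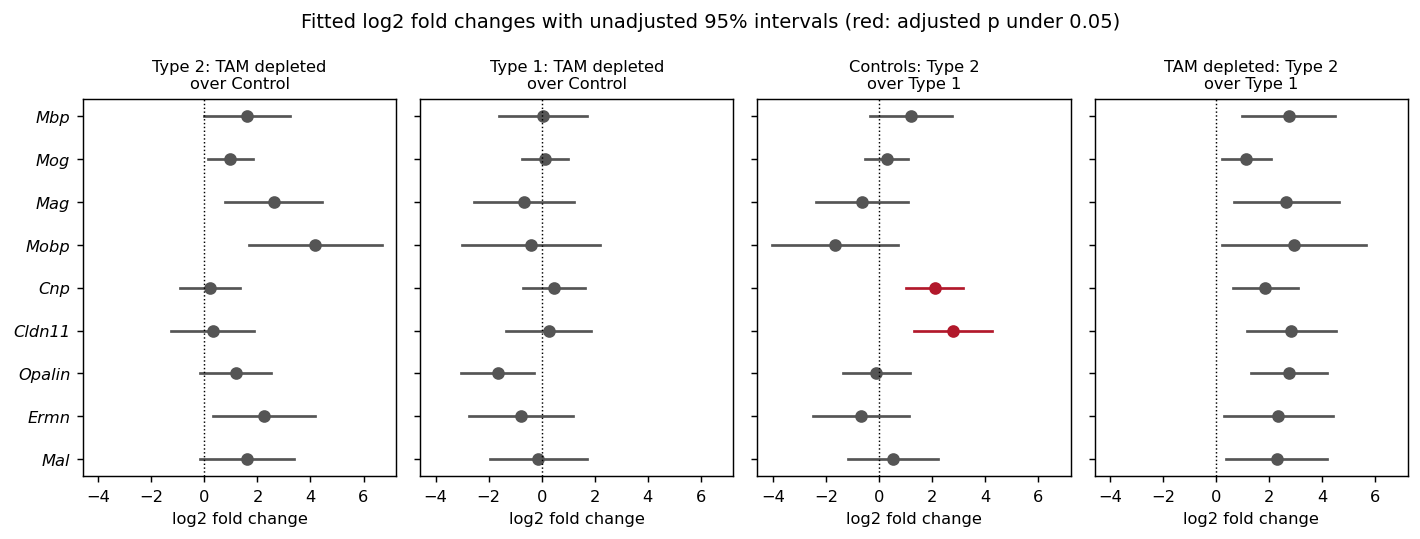
Fitted log2 fold changes (points) with unadjusted 95% intervals (lines) of the 9 genes in 4 comparisons from 1 limma fit of 16 libraries; red marks an adjusted p under 0.05. Only Cnp and Cldn11 between the controls are red, and in Type 2 depletion the points run from 0.20 for Cnp to 4.18 for Mobp.

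No member passed the test on TAM depletion in Type 2 tumours. All 9 fitted values were above 0, the largest for Mobp, Mag and Ermn and the smallest for Cnp and Cldn11. Mobp, a small basic protein of compact myelin, had normalized counts of 1389, 4530, 1524 and 2775 in the TAM depleted tumours, against 42.9, 14.5, 299 and 1210 in the Control tumours. Each TAM depleted value lay above each Control value. The Control values themselves spread far more, Type 2 Control 4 coming close to the lowest TAM depleted tumour. The log2 fold change was 4.18 (SE 1.19, unadjusted 95% interval 1.66 to 6.70, limma adjusted p = 0.0604). Mag had 341, 1302, 361 and 490 in TAM depleted tumours, against 42.9, 31.7, 108 and 366 in Control tumours. Here Type 2 Control 4 fell within the TAM depleted range (log2 fold change 2.61, SE 0.87, limma adjusted p = 0.109). Ermn had 146, 434, 179 and 223 in TAM depleted tumours, against 118, 8.35, 33.8 and 130 in Control tumours. Its groups did not overlap, though the gap between them was small (log2 fold change 2.25, SE 0.91, limma adjusted p = 0.190).

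The remaining members overlapped between the Type 2 groups. Mbp had 4891, 15091.5, 6949 and 6084 in TAM depleted tumours, against 3821, 1086, 1721 and 5331 in Control tumours (log2 fold change 1.59, SE 0.77, limma adjusted p = 0.290). Opalin had 26.7, 152, 90.6 and 106.5 in TAM depleted tumours, against 42.9, 18.4, 39.2 and 45.3 in Control tumours (log2 fold change 1.18, limma adjusted p = 0.343). Type 2 TAM depleted 1 was thus below 3 of the 4 Control tumours for Opalin and above 3 of 4 for Mbp. Mal averaged 555 ± 376 in TAM depleted and 237 ± 223 in Control tumours, and Mog 183 ± 69.5 in TAM depleted and 90.1 ± 25.9 in Control tumours (SD, n = 4 each). Their log2 fold changes were 1.62 and 0.97. The 2 genes called between the controls differed least. Cnp averaged 1652 ± 744 in TAM depleted and 1504 ± 890 in Control tumours, and Cldn11 1102 ± 412 in TAM depleted and 1211 ± 1116 in Control tumours (SD, n = 4 each). Their log2 fold changes of 0.20 and 0.31 had unadjusted 95% intervals of -0.93 to 1.33 and -1.25 to 1.86, and under quantile scaling they were -0.28 and -0.12.

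Of the 9 members 0 were called on Type 2 depletion, by limma-trend and by limma-voom, where 2.37% of all genes tested were called higher and 3.61% (956 genes) either way. That gene count was 100 without Type 2 Control 3, 285 without Type 2 TAM depleted 2, 302 without Type 2 TAM depleted 1 and 605 without Type 2 Control 1. Mog, Mag, Mobp and Ermn had an unadjusted p under 0.05, as did 9.81% of all genes in the higher direction. The members had a median log2 fold change of 1.59 against -0.21 over all genes. The 2 without overlap, Mobp and Ermn, stand beside 3.86% of all genes that were higher with no overlap. Within the background sets the values for Mobp were 4.16 among high-background and 4.196 among low-background libraries, and for Mag they were 2.61 in both. Mbp had 1.34 among high-background and 1.84 among low-background libraries, while Cnp had 0.70 among high-background and -0.29 among low-background libraries. Mobp passed the test when the background set was a covariate (limma adjusted p = 0.0353), and Mobp and Mag did so among high-background libraries alone, where 2 tumours stood on each side. Both passed without Type 2 Control 4 as well (limma adjusted p = 0.0179 for Mobp and 0.0440 for Mag), and neither did when any other single Type 2 library was left out. The members' median was 1.54 without Type 2 TAM depleted 4 and 0.99 without Type 2 Control 2. Library quality weights gave 2.08 for Mobp and 1.24 for Mag. Background subtraction gave 5.64 for Mobp (limma adjusted p = 0.152) and 4.02 for Mag (limma adjusted p = 0.205). Both genes lay under the subtracted background in Type 2 Control 1 and were set to 0 there.

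The counts behind the low Control values were small. In Type 2 Control 1 there were 12 reads each for Mobp, Mag and Opalin, or 1.75, 2.95 and 4.07 reads per kilobase, where the receptor genes' 90th percentile was 11.5. These 3 genes and Ermn (33 reads) therefore could not be told from background in that library. Mbp (126 reads per kilobase), Cnp (117), Mal (53.6) and Cldn11 (409) were well above it there. Type 2 Control 2 had low background, and its 26 Mobp reads (3.80 per kilobase) lay above the 90th percentile of 1.76. Over all genes and libraries, 11 of 144 values were not above that percentile: 5 of Opalin, 4 of Ermn and 1 each of Mag and Mobp. In 10 libraries all 9 genes were above it.

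**Figure D3:**
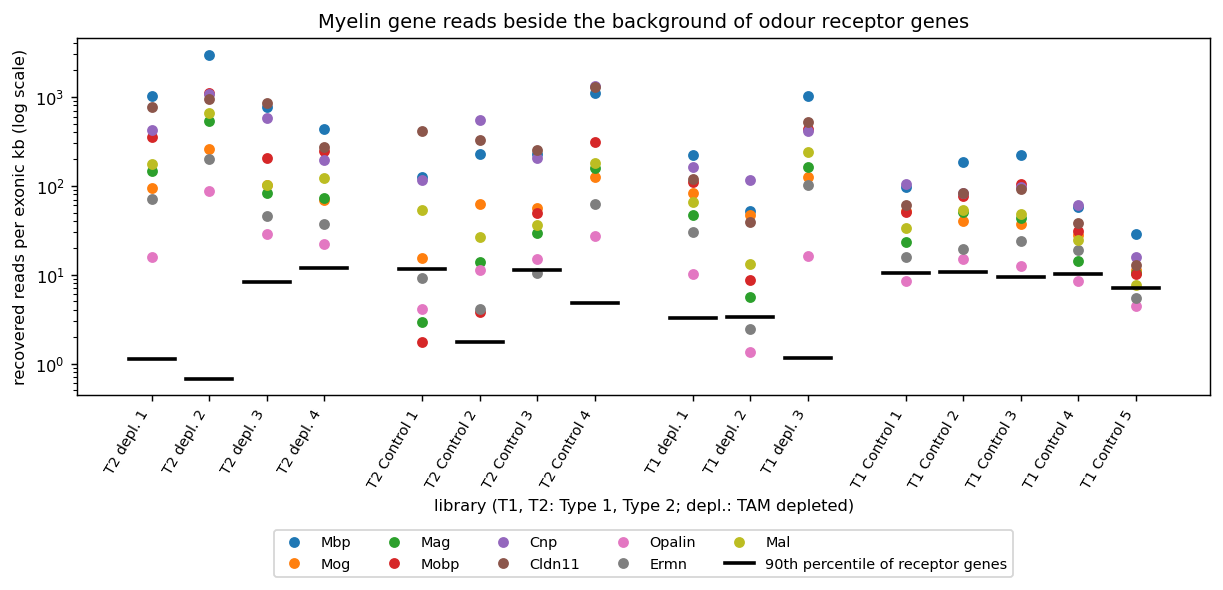
Recovered reads per exonic kilobase (log scale) of the 9 genes (coloured points) in each of 16 libraries, with the 90th percentile of 963 odour receptor genes as a black bar; T2 and T1 are Type 2 and Type 1, depl. is TAM depleted. In Type 2 Control 1 the points of Mobp, Mag, Opalin and Ermn lie under the bar at 11.5, while Cldn11 lies at 409.

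The proportion of Mobp to Cnp within a library was low in the Type 2 Control tumours, a ratio picked after its values were seen and given as a description. Mobp per kilobase was 85.0%, 104%, 35.9% and 127% of Cnp in the Type 2 TAM depleted tumours, against 1.504%, 0.69%, 24.1% and 23.5% in the Type 2 Control tumours. All Type 2 Control values were below all TAM depleted values. In Type 1 the ratio was 69.3%, 7.43% and 104.5% in TAM depleted tumours and 49.2%, 90.9%, 108%, 50.9% and 63.2% in Control tumours. The Type 2 Control tumours were lower than every Type 1 Control tumour, and Type 1 TAM depleted 2 was the only other library under 30% of Cnp. Ratios of Mbp and Ermn to Cnp and of Mobp to Cldn11 and to Mag also did not overlap between the Type 2 groups. Mbp was 132% to 280% of Cnp in TAM depleted and 42.1% to 112% in Control tumours. The gap was small for Ermn, at 7.95% to 19.1% of Cnp in TAM depleted and 0.755% to 7.79% in Control tumours. It was small too for Mobp to Cldn11, at 24.5% in the lowest TAM depleted and 24.4% in the highest Control tumour. For Mobp to Mag these were 207% and 197%. In Type 2 Control 1 Mobp, Mag and Ermn could not be told from background. Ratios of Mag, Opalin, Mal and Cldn11 to Cnp and of Mobp to Mbp overlapped. Mag was 14.3% to 50.2% of Cnp in TAM depleted and 2.53% to 14.6% in Control tumours, and Opalin 3.81% to 11.3% in TAM depleted and 2.05% to 7.32% in Control tumours.

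**Figure D4:**
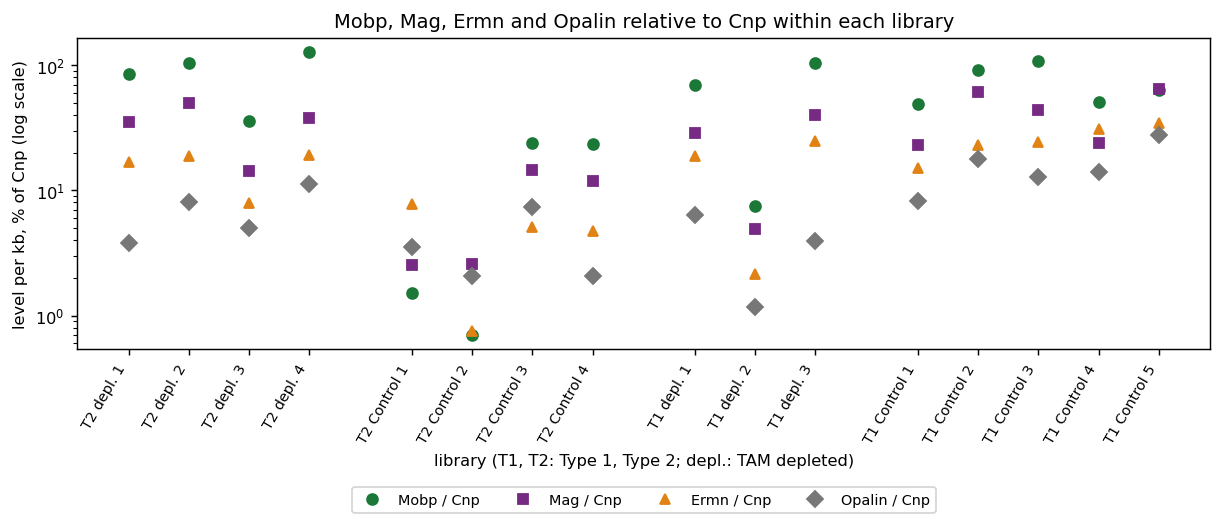
Levels per exonic kilobase of Mobp, Mag, Ermn and Opalin as percent of Cnp (log scale) in each of 16 libraries, in the order Type 2 TAM depleted, Type 2 Control, Type 1 TAM depleted, Type 1 Control. Mobp lies between 0.69% and 24.1% of Cnp in Type 2 Control and between 35.9% and 127% in Type 2 TAM depleted tumours.

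In Type 1 tumours the 9 genes gave no call on TAM depletion, and the values of the 3 TAM depleted tumours lay far apart. Type 1 TAM depleted 3 had the highest and Type 1 TAM depleted 2 the lowest value of the 3 for every member. Mbp had normalized counts of 1059, 265 and 4976 in TAM depleted tumours, against 857, 2271, 2353, 731 and 440 in Control tumours. Mobp had 428, 35.7 and 1698 in TAM depleted tumours, against 359, 749, 901, 317 and 125 in Control tumours. For both genes the TAM depleted values reached above and below all 5 Control values. Opalin, the member with the smallest p, had 16.8, 2.42 and 27.5 in TAM depleted tumours, against 25.8, 63.2, 46.2, 37.7 and 23.5 in Control tumours (log2 fold change -1.65, SE 0.65, limma adjusted p = 0.117). Of the 8 Type 1 libraries, Type 1 TAM depleted 2 and Type 1 Control 1, 4 and 5 had Opalin at background, and background was high in the Control libraries. With background subtracted the Opalin log2 fold change was -0.11 (limma adjusted p = 0.959).

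For the other 8 members the Type 1 log2 fold changes lay between -0.78 (Ermn) and 0.45 (Cnp). The interval for Mobp, from -3.004 to 2.19, and that for Mbp, from -1.63 to 1.73, leave room for changes of more than 2-fold either way. Limma-trend called 0% of all genes in Type 1, and limma-voom 0 as well, although 30.3% of all genes and 1 member, Opalin, had an unadjusted p under 0.05. No member was without overlap between the groups, where 10.5% of all genes were higher and 28.6% lower with no overlap, and the members' median of -0.13 stood beside -0.06 over all genes. Without Type 1 TAM depleted 1 the members' median was -0.18. Without Type 1 TAM depleted 2 it was 0.80. Mobp then had a log2 fold change of 1.11 and Mal of 0.90, where with all libraries they had -0.40 and -0.13. Without Type 1 TAM depleted 3 the members' median was -1.12, and Mbp had -1.03 and Cldn11 -0.70, against 0.05 and 0.26 with all libraries.

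The difference between the depletion responses of the 2 tumour kinds (Type 2 minus Type 1) was called for 0 of the 9 members, where limma-trend called 0% of all genes and limma-voom 0. Mobp had the largest, a log2 difference of 4.58 (SE 1.71, limma adjusted p = 0.472). Mag had 3.27, Ermn 3.03 and Opalin 2.83, which with Mobp were the 4 members at an unadjusted p under 0.05, as were 5.20% of all genes in the higher direction. Cldn11 and Cnp had 0.04 and -0.25, with intervals of -2.20 to 2.28 and -1.88 to 1.37. The members' median was 1.75, against 0.16 over all genes. It was 0.72 without Type 1 TAM depleted 2, 1.14 without Type 2 Control 2 and 2.74 without Type 1 TAM depleted 3. Each response uses its own Control tumours, and the difference shares libraries with both.

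Among TAM depleted tumours the Type 2 values of all 9 genes were above those of Type 1 on the fitted scale, and none passed the test in limma-trend or limma-voom. Cldn11 had 815, 1058, 1698 and 836 in Type 2 TAM depleted tumours, against 125, 44.2 and 561 in Type 1 TAM depleted tumours. Cnp had 868, 2319, 2254 and 1165 in Type 2 TAM depleted tumours, against 328, 255 and 863 in Type 1 TAM depleted tumours. For these 2 genes the groups did not overlap, and 3.30% of all genes were higher with no overlap. The log2 fold changes were 2.84 for Cldn11 (SE 0.80, limma adjusted p = 0.182) and 1.86 for Cnp (SE 0.58, limma adjusted p = 0.225). That comparison shares no tumour with the one between the controls, where the same genes had 2.80 and 2.11. Both come from 1 fit with a shared estimate of the spread. The Type 1 TAM depleted libraries all had low background, while the Type 2 TAM depleted libraries were of both sets. With the background set as a covariate 0 members were called, where 215 of 26463 genes were. Among low-background libraries alone 0 members and 22 of 18870 genes were called. With background subtracted it was 0 members and 13 of 23154 genes. The cause of the members' differences was not tested. Opalin had 2.74 (limma adjusted p = 0.127), Mbp 2.74, Mag 2.64, Mobp 2.93, Ermn 2.35, Mal 2.28 and Mog 1.14. Only 0.0567% of all genes were called higher and 0.185% either way. All 9 members had an unadjusted p under 0.05, as did 5.07% of all genes in the higher direction. The members' median was 2.64, against 0.11 over all genes. It was 1.41 without Type 1 TAM depleted 2 and 3.49 without Type 1 TAM depleted 3. Without that last library the test called Mbp, Cldn11 and Opalin, and it called no member when any other single library was left out.

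Other genes of the oligodendrocyte lineage did not all follow the 9 members. Of 30 further genes of mature oligodendrocytes and myelin, 21 had fitted values above 0 on Type 2 depletion and 9 below (median log2 fold change 0.41). Past the test were 1 higher and 2 lower, where 2.37% of all genes were called higher and 1.24% lower. At an unadjusted p under 0.05 in limma were 7 higher and 3 lower, beside 9.81% and 8.16% of all genes. Cntn2, an adhesion molecule that neurons also make, rose (2.59, limma adjusted p = 0.0402). Mcam, which pericytes and endothelial cells also make, fell by 1.75 on the log2 scale (limma adjusted p = 0.0207), and Gjc3, a connexin of glia, fell by 1.78 (limma adjusted p = 0.0264). Between the controls 20 of the 30 had fitted values above 0 and 10 below, with a median of 0.54. In limma 5 were called higher in Type 2 Control and 1 lower, where 2.28% of all genes were called higher and 0.816% lower. Those called higher were Gjc3 (4.92), Mcam (3.55), Gal3st1 (2.14), Plekhb1 (2.03) and Ugt8a (1.72). The gene called lower was Cntn2 (-2.45). Gal3st1 and Ugt8a make the sulfated galactolipids of myelin. In Type 1 depletion 0 of the 30 passed in limma, with a median of -0.04. At an unadjusted p under 0.05 in limma was 1 of them, beside 30.3% of all genes. Between the TAM depleted groups 1 passed (Gjc3, 2.79, limma adjusted p = 0.0111). There 29 of the 30 had fitted values above 0, with a median of 1.14.

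Of 13 lineage transcription factors, 8 had fitted values above 0 on Type 2 depletion and 5 below, and the 1 past the test was Sox10. It had normalized counts of 855, 1351, 351 and 779 in TAM depleted tumours, against 2988, 1727, 3367 and 4847 in Control tumours (log2 fold change -2.01, SE 0.52, limma adjusted p = 0.0424). The groups did not overlap, and Sox10 was lower where the members' fitted values were above 0. The Sox10 call was not followed through the alternatives, and over all genes 956 calls fell to 100 without Type 2 Control 3. Myrf had 1.12 (limma adjusted p = 0.460) and Olig2, a factor of the whole lineage, 0.38 (limma adjusted p = 0.859). Between the controls Sox10 was higher in Type 2 (4.56, limma adjusted p = 9.31e-05), as was Zeb2 (1.49), while Myrf had 0.79 and Olig2 1.58 without passing. Of 14 genes of oligodendrocyte precursors, 0 passed in limma on Type 2 depletion, also unadjusted (median -0.53), and 3 were higher in Type 2 Control than in Type 1 Control tumours: Cspg4 (3.68), Gpr17 (3.85) and Pdgfra (2.49), the growth factor receptor of precursors. All 14 had fitted values above 0 there, with a median of 1.63, where 2.28% of all genes were called higher. In Type 1 depletion 0 of the 13 factors and 0 of the 14 precursor genes passed in limma, with medians of 0.16 and 0.44. At an unadjusted p under 0.05 in limma were 2 and 1 of them, beside 30.3% of all genes.

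All 15 neuron markers had higher fitted values in Type 2 TAM depleted than in Type 2 Control tumours, 9 of them past the test (median 3.66). Over all genes 2.37% were called higher, and the median was -0.21. The summed normalized count of the neuron markers was 13096 to 107341 in Type 2 TAM depleted and 1561 to 10602 in Type 2 Control tumours. It was 12398 to 44947 in Type 1 TAM depleted and 9236 to 30986 in Type 1 Control tumours. The summed count of the 9 members was 8843, 26234, 13549 and 12424 in Type 2 TAM depleted tumours and 8944, 2706, 3451 and 11577 in Type 2 Control tumours. In Type 1 it was 2306, 693 and 9227 in TAM depleted tumours and 2095, 4453, 4533, 1889 and 920 in Control tumours. Type 2 TAM depleted 2 had the highest sum of both lists, and Type 1 TAM depleted 3 was the highest Type 1 library for both. Type 2 Control 1 had a member sum close to that of Type 2 TAM depleted 1 with far fewer neuron counts. Astrocyte markers had a median of 1.24 on Type 2 depletion, with 1 of 12 called higher, beside 2.37% of all genes. Markers of Schwann cells, the myelinating cells of peripheral nerve, had a median of -1.18 with 0 of 10 past it in limma. At an unadjusted p under 0.05 in limma, 6 were lower and 1 higher, beside 8.16% and 9.81% of all genes. No neuron or Schwann cell marker was at 0 in any library, where 90.5% to 99.98% of all genes had a read. A read alone does not show that such cells were present. The part of neurons and Schwann cells in the members' values was not tested.

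**Figure D5:**
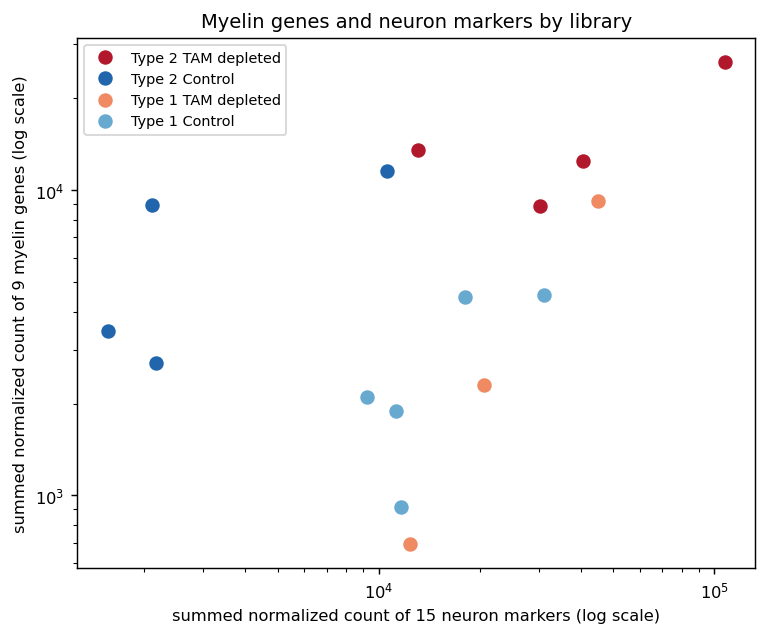
Summed normalized count of the 9 myelin genes against that of 15 neuron markers (both log scales), 1 point per tumour, coloured by group. The 4 Type 2 TAM depleted tumours lie at 13096 or more neuron counts and the 4 Type 2 Control tumours at 10602 or fewer.

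Within groups, the members varied together to differing degrees. After the group means were removed, the correlation of each gene with the mean of the other 8 across 16 libraries was 0.96 for Mbp, 0.93 for Ermn, 0.91 for Mal and 0.88 for Mag. It was 0.86 for Opalin and for Mog, 0.82 for Cldn11 and for Mobp, and 0.76 for Cnp, the lowest. Of 12869 other genes with a mean normalized count of at least 50, those most like the members' mean included Kcnc2 (Pearson's r = 0.96), Nefl (0.95), Rasgrf2, Rian, Spock1 and Peg3 (0.94 each), Xkr4 (0.93) and Scn2b (0.92). Kcnc2 and Scn2b encode channel subunits of neurons and Nefl the light neurofilament. All these genes share libraries, depth and background, and the correlations are descriptions.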

How the data were processed

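RNA of 16 tumours was sequenced from SMART-Seq v4 libraries, per the labels' protocols. STAR 2.7.8a, the build GRCm38 and DESeq2 (no version) are named in the submitters' processing notes, while the counting tool and annotation were not found in the sources. The authors deposited log2 values, which proved to be variance-stabilized. They were inverted to normalized counts, and 100% of these came out as whole numbers of reads (tolerance 0.05). The deposited unit is log2, so no count model was the main test, and limma-voom on the recovered reads was an alternative.

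Limma-trend (limma 3.58.1, R 4.3.3) was fitted to log2(normalized count + 1) with 4 group means over 16 libraries (12 residual degrees of freedom, prior 4.74). Kept were 26463 genes with 10 normalized counts in 3 libraries. P-values were 2-sided and adjusted over these genes by Benjamini-Hochberg (threshold 0.05), in 5 comparisons. Log2(value + 1) understates changes of low genes. All 9 members were named everywhere. Of other lists, Myrf, Sox10, Olig2, Pdgfra and up to 4 genes with the smallest p were named, and further called genes after their values were seen. Genes most like the members were the 10 with the highest Pearson's r after removal of group means. Some genes that these rules name are not reported here. The members and lists were chosen with earlier results of these data known. Alternatives were pseudocounts, filters, scalings, weights, moderation, the deposited log2 values, background sets, single tables, a replicate block and leaving out each library. Background subtraction was chosen after seeing the data. Exonic lengths are from GENCODE vM21, in which 25514 symbols (96.4%) matched. Reads carry no molecular identifiers, so counts carry more than counting error. The steps were tested on simulated data.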

Additional observations from a re-analysis of the deposited data

Results flagged for a closer look

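Of 27 sets of values (9 genes in each of 3 groups of 4 or 5 tumours), 3 held a tumour whose gap to the rest exceeded Dixon's 95% value, where chance gives about 1 in 20. Type 1 Control 5 was low for Mog, with a normalized count of 34.3, and for Cnp, with 105. The other 4 Type 1 Control tumours had 72.4 to 97.6 for Mog and 330 to 444 for Cnp. That library had 6.10 M reads, of which 35.1% fell in the gene model Gm10800, and it had the lowest sum of the 9 genes among Control tumours. Type 2 Control 2 was low for Opalin, with 18.4, against 39.2 to 45.3 in the other 3 Type 2 Control tumours. It was also the lowest Type 2 Control tumour for the sum of the 9 genes.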

How the results depend on the processing

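Over 5 comparisons of 9 genes, 998 alternative values kept their direction and their side of the threshold, 15 lost a call, 12 gained one and 64 turned direction. Members called on Type 2 depletion were 0 as reported, 1 (Mobp) with a filter of 50, with the deposited log2 values or with the background set as a covariate, 2 among high-background libraries alone, and 0 to 2 with 1 library left out. On Type 1 depletion 1 (Opalin) was called with library quality weights. Between the controls 2 were called as reported, 0 with background subtracted, 0 with a replicate block (Cnp 1.73, limma adjusted p = 0.140, and Cldn11 2.43, limma adjusted p = 0.155), 1 (Cldn11) with the background covariate or among high-background libraries alone, and 0 to 2 with 1 library left out. Between the TAM depleted groups 1 (Cldn11) was called with library quality weights, and 0 to 3 with 1 library left out. The cause of these moves was not tested.

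Directions that turned belonged to values that were not called. On Type 2 depletion Cnp had -0.28 with quantile scaling, -0.088 with upper quartile scaling, -0.32 with quality weights and -0.29 among low-background libraries, and Cldn11 -0.12 with quantile scaling. On Type 1 depletion quantile scaling gave Mbp -0.57 and Cnp -0.030, and upper quartile scaling gave Mbp -0.40, Mog -0.32, Cnp -0.0017 and Cldn11 -0.19. Quality weights gave Mbp -0.46, Mog -0.10, Cnp -0.011 and Cldn11 -0.30, and the replicate block Mbp -0.57, Mog -0.21, Cnp -0.020 and Cldn11 -0.29. Mal had 0.19 in the Type 1 table alone and 0.29 with background subtracted. For the difference of responses, Cldn11 had -0.35 with quantile scaling and -0.19 with background subtracted, and Cnp 0.22 with the replicate block. Between the controls Opalin had 0.17 with quantile scaling, 0.18 with the background covariate, 0.15 among high-background libraries and 0.46 with background subtracted, and quality weights gave Mag 0.43 and Mobp 0.10.

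With 1 library left out, Type 2 depletion ran from -0.13 to 0.55 for Cnp and from -0.13 to 0.87 for Cldn11. Type 1 depletion ran from -1.03 to 1.09 for Mbp, -0.19 to 0.46 for Mog, -1.75 to 0.59 for Mag, -1.66 to 1.11 for Mobp, -0.073 to 0.80 for Cnp, -0.70 to 1.12 for Cldn11, -1.92 to 0.61 for Ermn and -1.12 to 0.90 for Mal. The difference of responses ran from -0.81 to 1.01 for Cldn11 and -0.60 to 0.27 for Cnp. Between the controls the range was -0.25 to 0.20 for Opalin, -1.17 to 0.10 for Ermn and -0.062 to 1.16 for Mal.

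Counts over all genes moved more. On Type 2 depletion 956 genes were called as reported, 2635 with the background covariate, 436 with quality weights, 286 with the replicate block, 0 among low-background libraries, with the 2 groups or the Type 2 table alone or with background subtracted, and 100 to 1258 with 1 library left out. On Type 1 depletion 0 were called as reported, 9389 with its 2 groups alone, 16381 in the Type 1 table alone and 13721 with quality weights. Upper quartile scaling moved the median of all genes to -0.47 on Type 2 depletion and -0.50 on Type 1 depletion, against -0.21 and -0.06 as reported. Between the controls 819 were called as reported, 347 with the replicate block or with background subtracted, 1804 with quantile scaling, 6559 with quality weights, 2343 with limma-voom, and 510 to 1141 with 1 library left out. Between the TAM depleted groups 49 were called as reported, 16 with the replicate block, 429 with quality weights, and 12 to 234 with 1 library left out. Replicate numbers did not pair the samples: correlations of same-numbered tumours ran from -0.67 to 0.50.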

Other observations

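Among TAM depleted tumours, all 12 cell cycle genes had lower fitted values in Type 2 TAM depleted than in Type 1 TAM depleted tumours (median log2 fold change -1.61), where the 9 myelin genes had a median of 2.64. None of the 12 passed in limma, and 9 had an unadjusted p under 0.05, as did 7.04% of all genes in the lower direction. Between the controls 4 were higher and 8 lower in Type 2 (median -0.26), with 0 past the test and 0 at an unadjusted p under 0.05. On depletion 11 of 12 were lower in Type 2 (median -0.86) and 12 of 12 higher in Type 1 (median 0.77), with 0 past the test and 0 at an unadjusted p under 0.05 in either. The T and NK cell list had 9 measured genes, all lower on depletion in Type 2 (median -1.51) and in Type 1 (median -1.91), with 0 past the test in limma and 6 and 5 at an unadjusted p under 0.05, where 8.16% of all genes in Type 2 and 24.5% in Type 1 were lower at that threshold. Background differed with depletion in Type 1, and its part in these values was not tested.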
